A study of Homo sapiens with 6 samples.

Results

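The 1-Mb window chr12:46000000-47000000 (hg19) holds 4 protein-coding genes, ARID2, SCAF11, SLC38A1 and SLC38A2, of which SLC38A1 and SLC38A2 encode glutamine transporters. It was selected on its measured peak counts, as a stretch of chromosome 12 with 14 intervals shared by both DEK precipitations and many further peaks in precipitation 1. Its members are the peaks that overlap the window: 33 of the 15017 peaks of DEK precipitation 1, 74 of the 152779 peaks of DEK precipitation 2, and 14 of the 4453 shared intervals, a shared interval being the intersection by at least 1 bp of a peak of each list. DEK and H3K4me3 were precipitated from untreated U937 cells, an established human myeloid line, with 2 precipitations each and 2 samples of non-precipitated chromatin (Input) as controls, 6 samples in 3 groups. All samples come from the same line and carry no treatment, so the data give no contrast between conditions, and peaks of 1 library are not replicates; values are therefore given as descriptions without p-values.

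SLC38A1 (SNAT1) and SLC38A2 (SNAT2) are sodium-coupled carriers that bring glutamine and other small neutral amino acids into cells, and SLC38A2 is known to be induced when amino acids are scarce. ARID2 is a DNA-binding subunit that defines the PBAF form of the SWI/SNF chromatin remodelling complex, and SCAF11 is a serine- and arginine-rich protein associated with splicing. DEK is an abundant chromatin protein of the nucleus, and H3K4me3, trimethylation of lysine 4 of histone H3, marks the promoters of active genes.

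The start sites of the 3 named members differ in DEK peaks, so the 150 bases directly upstream of the outermost annotated start of each are shown 5′ to 3′ on the strand of the gene, from GRCh37, the assembly behind hg19. Capitals mark matches, on either strand, to 7 letter strings searched: CACGTG (E-box), GGGCGG and CCCCACCC (SP1 type), GAGGAA (ETS type), TGTGGT (RUNX type), CCAAT (NF-Y type) and TGATGCAA (C/EBP-ATF composite of amino acid response genes).
ARID2, chr12:46123339-46123488, plus strand: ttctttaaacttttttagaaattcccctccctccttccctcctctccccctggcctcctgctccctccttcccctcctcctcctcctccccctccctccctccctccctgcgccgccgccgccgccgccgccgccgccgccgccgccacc
SLC38A1, chr12:46663801-46663950, minus strand: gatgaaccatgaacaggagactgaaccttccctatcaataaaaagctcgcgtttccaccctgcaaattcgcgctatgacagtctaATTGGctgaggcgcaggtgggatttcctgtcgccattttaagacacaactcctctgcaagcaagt
SLC38A2, chr12:46766557-46766706, minus strand: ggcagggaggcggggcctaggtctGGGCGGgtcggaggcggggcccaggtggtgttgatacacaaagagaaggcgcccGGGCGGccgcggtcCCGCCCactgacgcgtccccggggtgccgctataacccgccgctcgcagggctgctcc
The SLC38A2 sequence was 74.7% G or C and held 3 matches to GGGCGG or its reverse complement, the SLC38A1 sequence was 48% G or C with 1 match to CCAAT on the opposite strand, and the ARID2 sequence was 70% G or C with no match in this stretch.

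Of the shared intervals, 2 at promoters are shown by the 150 bases at their middle, on the plus strand: interval 4 upstream of ARID2, and interval 13, inside the outermost SCAF11 start and upstream of an inner one. Intervals are numbered by position in the window, and capitals mark the same letter strings.
interval 4, chr12:46122739-46122888, plus strand: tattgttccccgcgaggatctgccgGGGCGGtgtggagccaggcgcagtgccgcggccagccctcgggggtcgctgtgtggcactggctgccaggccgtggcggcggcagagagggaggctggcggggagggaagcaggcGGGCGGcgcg
interval 13, chr12:46384636-46384785, plus strand: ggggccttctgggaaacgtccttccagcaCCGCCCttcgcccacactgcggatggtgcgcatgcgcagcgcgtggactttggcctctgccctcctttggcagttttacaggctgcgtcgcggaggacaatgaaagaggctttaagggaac
Both held GGGCGG or its reverse complement in these bases. Of the promoter intervals not shown, interval 5 at ARID2 held it as well, and interval 3 at LINC00938 held none of the strings in its middle 150 bases.

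Shared intervals lay in the bodies of ARID2 and SCAF11 or in no coding gene, and none lay at the glutamine transporter promoters. Such absence is usual, since only 4.38% of all coding genes had a shared interval within 1 kb of a start site. Of the 14, 4 lay in the body of ARID2 (plus strand, chr12:46123489-46301823), 4 in that of SCAF11 (minus strand, chr12:46312914-46385903), 0 in SLC38A1 (minus strand, chr12:46576846-46663800), 0 in SLC38A2 (minus strand, chr12:46751971-46766556) and 6 in no coding gene. By the middle of the interval, 5 were intergenic, 5 intronic and 4 exonic, noncoding genes included. The middle was within 1 kb of an annotated transcription start site (TSS) in 5 of 14, or 35.7% (95% Wilson interval 16.3 to 61.2), beside 29.3% in the rest of chromosome 12 and 26.2% of all shared intervals, so the share in the window did not stand apart from the background. Counts of this size allow wide intervals, and these cover counting error only.

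The promoter of ARID2 carried the peak with the most tags, that is, sequenced fragments assigned to the peak, of precipitation 1 on the whole chromosome. This peak, chr12:46119610-46124219, held 914 tags, ranked 5 in the list of 15017, and had a MACS score of 120.66, where the score is 10 times the negative log10 of the caller's p-value, and a fold enrichment of 5.27 over the caller's local background. It covered the start sites of ARID2, of LINC00938 and of the noncoding gene ENSG00000289229, both transcribed away from ARID2. In precipitation 2 the same stretch was divided into separate peaks. Interval 3, at LINC00938 (chr12:46120054-46122027), had 230 tags, a score of 436.80 and a fold of 3.96 there. Interval 4 (chr12:46122228-46123401), with its middle 675 bp upstream of the ARID2 start, had 79 tags and a score of 184.26, and interval 5 (chr12:46123472-46124162), over the ARID2 start itself, had 37 tags and a score of 57.24. The strongest signal of both precipitations in this promoter stretch was thus centred upstream of ARID2, on the noncoding side. A peak of each H3K4me3 list, 9740 and 10059 bp wide, covered the whole stretch. For every interval, the tags, score and fold given are those of the whole peak of each DEK list, which can extend beyond the interval.

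Within the body of ARID2, precipitation 1 had 6 peaks and precipitation 2 had 22. Interval 6, in an intron with its middle 4254 bp from the nearest annotated ARID2 start, had 71 tags in precipitation 1 and 53 in precipitation 2. Interval 7, also intronic, had 106 and 59 tags, and interval 8, towards the 3′ end of the gene, had 202 and 60. These intronic intervals were low beside the promoter in precipitation 1, and their precipitation 2 counts lay near the window's median of 63 tags. ARID2 carried 3.36 peaks of precipitation 1 and 12.3 of precipitation 2 per 100 kb of gene.

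SCAF11 carried peaks more closely than ARID2 in precipitation 1, with 8 peaks of each precipitation in its body, or 11.0 per 100 kb in each list, and 16.2% of the gene covered in precipitation 1 against 6.61% of ARID2. Its promoter peak had 694 tags, a score of 61.58 and a fold of 4.19 in precipitation 1. This peak ranked 8 by tags in the whole list, but its score was below the medians of the list (68.8) and of the window (78.72). The precipitation 2 peak there had 284 tags, a score of 281.49 and a fold of 2.74. The middle of this interval 13 was 4 bp from the start of the noncoding gene ENSG00000289046, which overlaps SCAF11 on the opposite strand, and 344 bp upstream of the nearest, inner SCAF11 start. The other SCAF11 intervals were smaller. Interval 10 had 74 and 63 tags in precipitations 1 and 2, interval 11 had 107 and 47, and interval 12 had 110 and 63. The middles of intervals 10 and 11 were annotated as SCAF11 untranslated sequence of some transcripts, and that of interval 12 as intron. Interval 9, between ARID2 and SCAF11 (chr12:46308497-46309641), had 300 and 68 tags.

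SLC38A1 and SLC38A2 showed a different arrangement at their start sites: a peak of high score in precipitation 2 and none in precipitation 1. Among all coding genes, 56.9% had a precipitation 2 peak and 8.45% a precipitation 1 peak within 1 kb of a start. At SLC38A2 the precipitation 2 peak chr12:46764709-46767536 had 287 tags, a fold of 3.41 and a score of 640.69, the highest of the 74 in the window, rank 8 on chromosome 12 and rank 441 of 152779 in the list. At SLC38A1 the peak chr12:46660829-46664112 had 353 tags, the most of the 74, a fold of 2.30 and a score of 414.15, rank 1134 in the list. Its fold was low for the window, where the 74 peaks had a median of 3.775 and a lower quartile of 3.23. Both start-site peaks overlapped peaks of both H3K4me3 lists. At SLC38A1, however, the peak of H3K4me3 precipitation 2 did not reach the outermost start. The nearest precipitation 1 peak edge was 25572 bp from the SLC38A1 start and 13919 bp from the SLC38A2 start. An absent peak says only that none was called: the tags under these promoters in precipitation 1 were not analysed here.

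**Figure D1:**
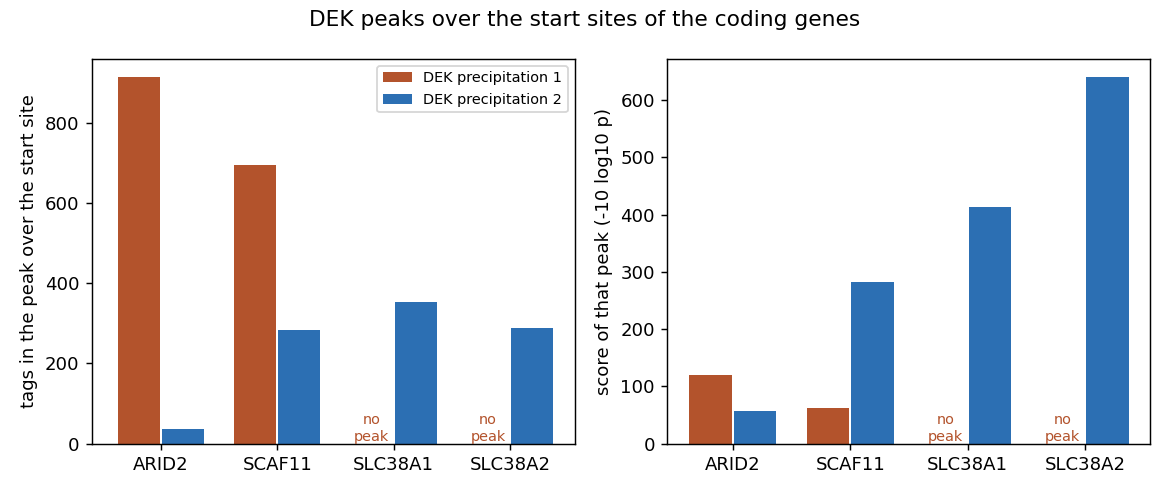
Tags (left, count) and MACS score (right) of the DEK peak over the outermost start site of each coding gene, 1 bar per precipitation. Precipitation 1 had 914 tags at ARID2 and 694 at SCAF11 and no peak at SLC38A1 or SLC38A2, where precipitation 2 had 353 and 287 tags.

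Precipitation 1 had peaks elsewhere in the transporter genes. In SLC38A1 there were 3: chr12:46578219-46580043 near the 3′ end with 125 tags, and 2 neighbouring intronic peaks, chr12:46608264-46611075 with 288 tags and chr12:46611402-46614461 with 381 tags and a fold of 5.59. The neighbouring pair met peaks of both H3K4me3 lists and no peak of precipitation 2. At SLC38A2 the only precipitation 1 peak, chr12:46746228-46752083 with 384 tags, a score of 103.96 and a fold of 3.35, reached into the 3′ end of the gene and covered 0.775% of it. Interval 14, where it met a precipitation 2 peak of 44 tags and a score of 87.35, lay beyond the gene, 6988 bp from the nearest annotated SLC38A2 start. The next member of the family on the chromosome, SLC38A4 (chr12:47158544-47226191), which lies beyond the window, had 0 peaks of any of the 4 lists in its body.

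**Figure D2:**
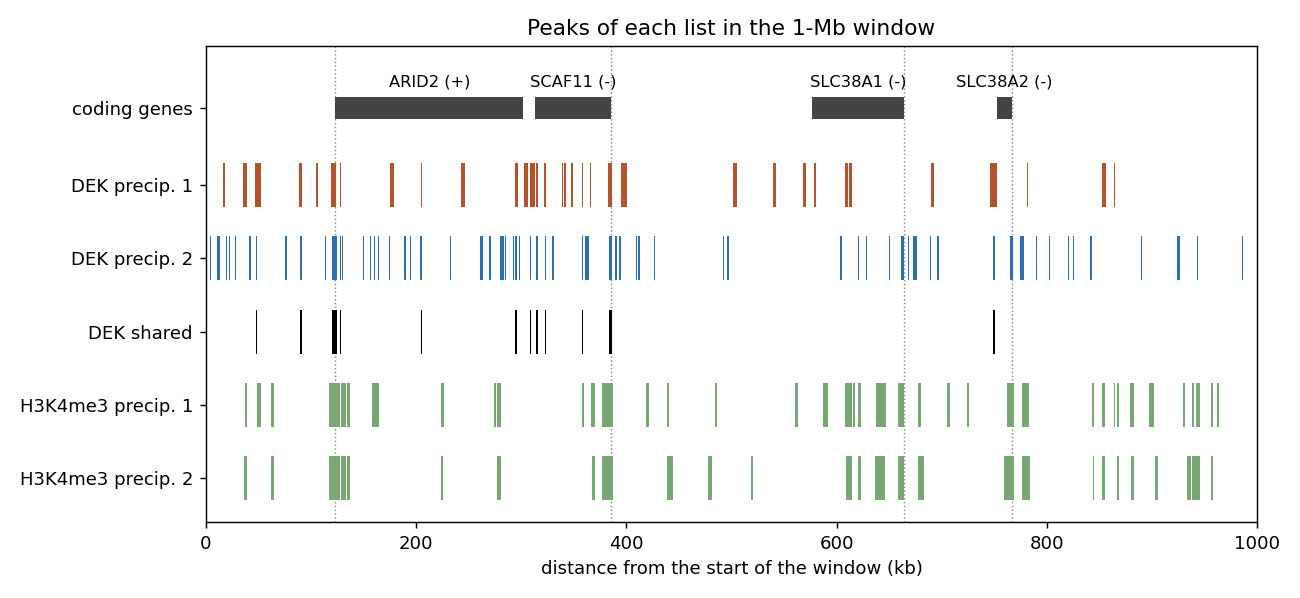
Peaks of the DEK and H3K4me3 lists and the DEK shared intervals along the window (distance from its start in kb), with the 4 coding genes, their strand in brackets, and dotted lines at their outermost start sites. Of the 14 shared intervals, 13 lie in the ARID2 and SCAF11 side of the window and 1 lies beside SLC38A2.

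The 2 remaining intervals were intergenic, upstream of ARID2 and beyond the 3′ end of LINC00938. Interval 1 (chr12:46048064-46049002) was 939 bp of a precipitation 1 peak of 5287 bp. That whole peak held 456 tags, the third most in the window, and the precipitation 2 peak held 69. Interval 2 (chr12:46089574-46091776) had 215 and 112 tags, with scores of 107.60 and 169.97. Scores reached 100 in both lists in 3 of the 14 intervals, namely interval 2 and intervals 3 and 4 at ARID2.

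Of the 33 precipitation 1 peaks, 12 met a precipitation 2 peak (36.4%, 95% Wilson interval 22.2 to 53.4), beside 25.6% in the rest of the chromosome and 27.4% of the whole list. The rule used this overlap, so nothing is read from it. Of the 74 precipitation 2 peaks, 14 met a precipitation 1 peak (18.9%, 11.6 to 29.3), beside 3.12% in the rest of the chromosome and 2.9% of the whole list, which the rule used as well. The 12 precipitation 1 peaks with a partner had a median of 208.5 tags, and the 21 without had 206. In precipitation 2 the 14 with a partner had a median of 63 tags and the 60 without had 62.5. Peaks with and without a partner thus hardly differed in tags in either list. Their median scores differed in opposite directions, 83.68 with a partner and 66.89 without in precipitation 1, and 90.6 and 103.4 in precipitation 2.

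H3K4me3 was not used to choose the window. Of the precipitation 1 peaks, 7 of 33 met peaks of both H3K4me3 lists (21.2%, 10.7 to 37.8), beside 35.1% in the rest of the chromosome and 32.9% of the whole list. Of the precipitation 2 peaks, 12 of 74 did (16.2%, 9.53 to 26.2), beside 8.81% and 7.74%. Of the shared intervals, 4 of 14 did (28.6%, 11.7 to 54.6), beside 39.8% and 33.7%. The background was inside the interval for precipitation 1 and for the shared intervals, and below it for precipitation 2. For precipitation 1 this depended on the list. With H3K4me3 precipitation 1 alone, 11 of 33 peaks met it (33.3%, 19.8 to 50.4), beside 52.0% in the rest of the chromosome and 50.2% of the whole list. The same 33.3% met either list, beside 53.6% and 51.3%. These background shares were above the interval, except the 50.2% of the whole list, which was just inside it. H3K4me3 peaks covered 14.2% and 12.4% of the window, against 3.54% and 2.50% of the rest of the chromosome. DEK peaks were also wider in the window. The shares are therefore not on an equal footing with their backgrounds, and overlap by coverage alone was not tested. The 4 shared intervals were 3, 4 and 5 at ARID2 and 13 at SCAF11, while intervals 1, 6 and 12 met a peak of H3K4me3 precipitation 1 alone.

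The 5 precipitation 2 peaks with the highest scores all lay over a start site and met both H3K4me3 lists: SLC38A2 (640.69), LINC00938 (436.80), SLC38A1 (414.15), SLC38A4-AS1 (339.38) and SCAF11 (281.49). SLC38A4-AS1, a long noncoding gene that starts close to SLC38A2, had 155 tags at its start (chr12:46776100-46778111). The 12 precipitation 2 peaks that met both H3K4me3 lists had a median of 74.5 tags and a score of 146.91, and the other 62 had 62 tags and 99.39. In precipitation 1 the 7 peaks had a median of 289 tags against 183 in the other 26. Among these 7, 5 had no precipitation 2 partner, including the intronic pair of SLC38A1 and the peak with the highest fold of the window, 6.94 with 262 tags (chr12:46852127-46855664, intronic in SLC38A4-AS1).

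Peaks of the window held more tags at a lower fold enrichment than peaks of the rest of chromosome 12, in both precipitations. In precipitation 1 tags ranged from 55 to 914 with a median of 206, against 57 in the rest, and width had a median of 2934 bp against 1106. In precipitation 2 tags ranged from 25 to 353 with a median of 63, against 18, and width had a median of 1006 bp against 666.5. The median fold was 4.04 against 5.20 in precipitation 1 and 3.775 against 4.64 in precipitation 2. Peaks of both lists were thus larger and less enriched over their surroundings. The peaks of the window made up 0.220% of the peaks of precipitation 1 and 0.787% of the tags in its peaks, and 0.0484% and 0.139% in precipitation 2.

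**Figure D3:**
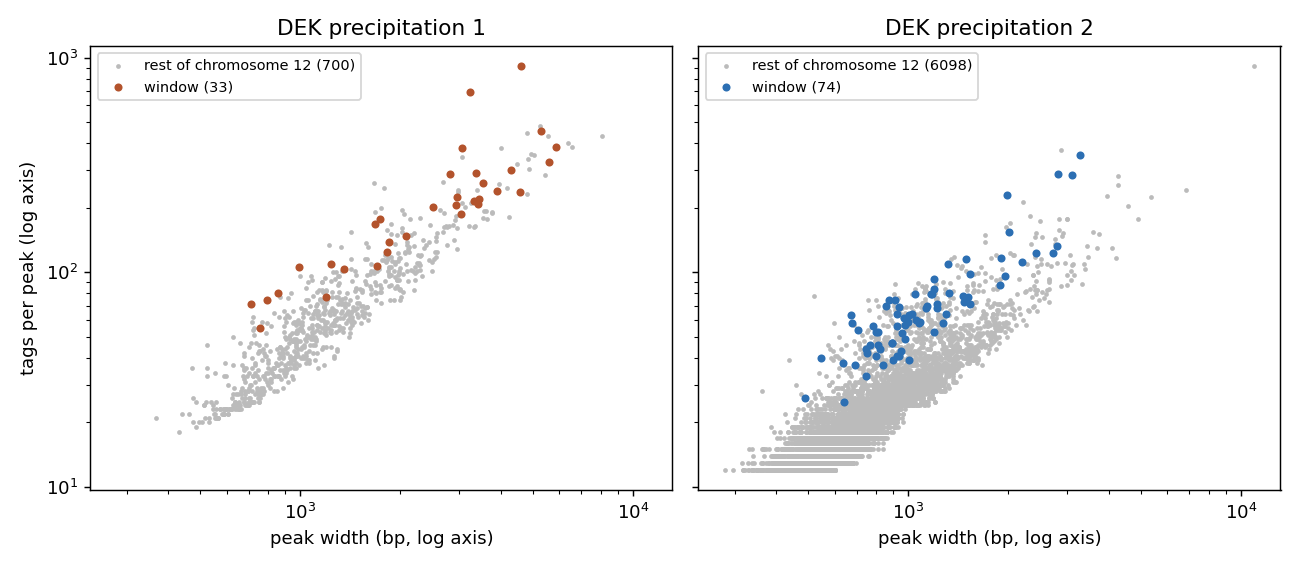
Tags per peak (log axis) against peak width in bp (log axis) for DEK precipitation 1 (left) and 2 (right), 1 point per peak, with the window in colour and the rest of chromosome 12 in grey. The peaks of the window lie at the upper side of the grey points, with medians of 206 and 63 tags against 57 and 18.

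Dividing the tags per kb of a whole peak by its fold enrichment gives an index. It is not a measure of the local background alone, since its highest values in the window were at tag-rich promoter peaks. These were 51.2 at SCAF11 in precipitation 1 and 46.7 at SLC38A1 in precipitation 2. Its median was 20.6 in the window against 9.29 in the rest of the chromosome in precipitation 1, and 15.4 against 5.83 in precipitation 2, ratios of 2.22 and 2.64. Among 1-Mb bins with at least 10 peaks, the window ranked 1 of 504 in the genome by this index in precipitation 1 and 3 of 2584 in precipitation 2. The elevation was common to both precipitations. Coverage of the non-precipitated chromatin and DNA copy number were not analysed here, and their part in the peak counts, tags and index was not tested.

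The elevation began before the window and ended close to its distal edge. From 38 to 46 Mb precipitation 1 had 27.1 peaks per Mb with a median of 81 tags and an index of 12.8, and precipitation 2 had 54.1 per Mb with 50 tags and an index of 12.9. From 47 to 55 Mb precipitation 1 had 5.88 per Mb with 45 tags and an index of 8.73, and precipitation 2 had 75.5 per Mb with 17 tags and an index of 5.55. The window thus formed the distal end of a raised stretch, and precipitation 2 was no denser in peaks there than beyond it. In bins of 100 kb, the median of precipitation 2 was 58 tags at 46.9 Mb, 36 at 47 Mb, 14 at 47.2 Mb and 12 at 47.3 Mb, with no peak at 47.1 Mb. Precipitation 1 still had 1 peak just past the edge (chr12:47001191-47004310) with 201 tags and an index of 17.9, near the window's medians, and no further peak up to 47.6 Mb. The lowest tag count of any precipitation 2 peak was 25 in the window and 12 from 47 to 55 Mb, so peaks as small as the smallest beyond the edge were not listed in the window.

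**Figure D4:**
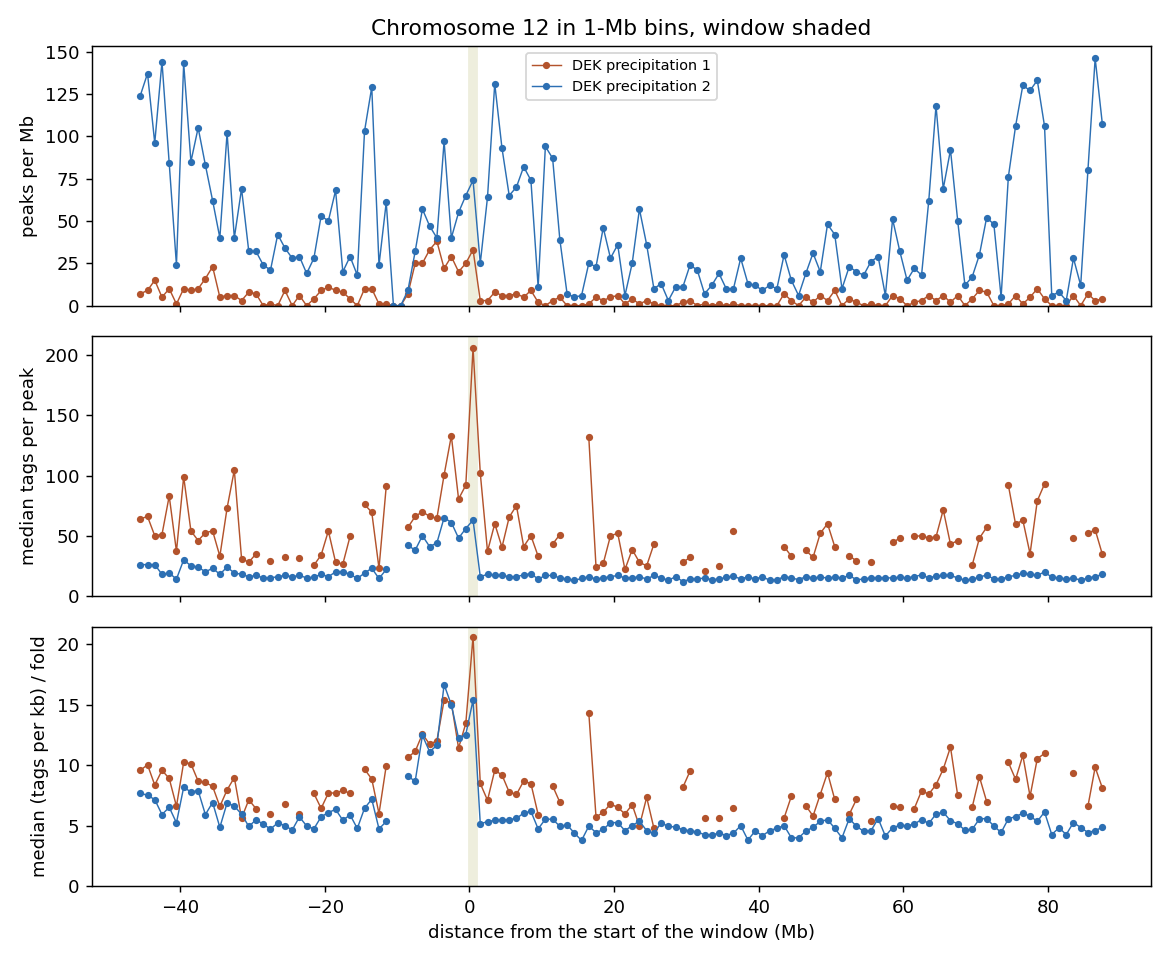
Peaks per Mb (top), median tags per peak (middle) and median of tags per kb over fold enrichment (bottom) in 1-Mb bins of chromosome 12. The horizontal axis is the distance from the start of the window in Mb, with 1 line per DEK precipitation and the window shaded. Medians are blank only where a bin has no peak, so bins with few peaks are included. The medians of both precipitations rise before the window and fall directly after it.

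The window had 33 precipitation 1 peaks per Mb against 5.41 in the rest of the chromosome, 74 precipitation 2 peaks against 47.1, and 14 shared intervals against 1.48. These counts chose the window and carry no test. Among the 134 bins of 1 Mb on chromosome 12 it ranked 2, 30 and 1 by them. H3K4me3 peaks, which the rule did not use, numbered 43 and 28 per Mb against 18.4 and 11.8, ranks 5 and 9, with median widths of 2958 and 3514.5 bp against 1543 and 1753. Peaks of each DEK and H3K4me3 list were thus wider in the median and more numerous per Mb there than in the rest of the chromosome. The cause was not tested. At the borders of the window the nearest precipitation 1 peaks had 146 tags just outside and 148 just inside at the low end, and 55 inside and 201 outside at the high end. The corresponding precipitation 2 peaks had 121 and 61 tags at the low end and 58 and 33 at the high end.

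Many shared intervals contained repeated sequence. In 9 of 14 (64.3%, 38.8 to 83.7) the 150 bp on each side of the middle held at least 1 stretch of 16 bases that occurs at least 1000 times on chromosome 12, beside 47.6% of the 191 shared intervals of the rest of the chromosome. The 9 were intervals 1, 6 to 12 and 14, and the 5 without were interval 2 and the promoter intervals 3, 4, 5 and 13. Of the peaks themselves, 39.4% in precipitation 1 and 70.3% in precipitation 2 held such sequence, beside 32.1% and 65.4% in the rest. The shares in the window did not stand apart from those of the rest of the chromosome, and the part of multiply mapping reads in the intervals was not tested.

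GGGCGG occurred in the 150 bp on each side of the middle of 5 of the 14 intervals (35.7%), beside 23.6% of the 4435 shared intervals that lie on placed chromosomes, and these were intervals 2, 4, 5, 12 and 13. TGTGGT was found in 3 (21.4% beside 22.1%), GAGGAA in 2 (14.3% beside 21.2%) and CCAAT in 1 (7.14% beside 21.1%). CACGTG, CCCCACCC and TGATGCAA were in 0 of 14, which allows a share of up to 21.4%, beside 5.66%, 4.96% and 0.722%. None of these letter strings contains another. At 14 intervals none of the shares could be told from the background.

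Across a list of 42 genes of glutamine transport, use and response, 3 had a shared interval with its middle within 1 kb of a start site, 7.14% beside 4.38% of all 20162 protein-coding genes. By single lists, 4 had a precipitation 1 peak there (9.52% beside 8.45%) and 26 a precipitation 2 peak (61.9% beside 56.9%). In the SLC38 family, SLC38A1 and SLC38A2 included, 8 of 11 genes had a precipitation 2 peak (72.7% beside 56.9%) and 0 of 11 a precipitation 1 peak or shared interval, which allows a share of up to 27.3% and so includes the 8.45% and 4.38% of all coding genes. Of 8 other transporters 3 had a precipitation 2 peak (37.5% beside 56.9%) and 0 a precipitation 1 peak, which allows a share of up to 37.5%. Genes with a shared interval included PFAS, a glutamine-using enzyme of purine synthesis, with 95 and 63 tags in precipitations 1 and 2, and DDIT3, the stress-induced factor CHOP, with 43 and 24.

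ARID2 belongs to a list of 29 SWI/SNF genes, of which 3 had a shared interval at a start site (10.3% beside 4.38% of all coding genes), 4 a precipitation 1 peak (13.8% beside 8.45%) and 21 a precipitation 2 peak (72.4% beside 56.9%). The other 2 with a shared interval were SMARCD2, a core accessory subunit, with 32 and 55 tags, and ARID1A, the counterpart of ARID2 in the BAF form of the complex, with 169 and 60. At ARID2 the precipitation 1 count of 914 tags exceeded both, but its score of 120.66 was below the 170.59 of ARID1A. The ARID2 peak is 4610 bp wide and also covers the starts of LINC00938 and ENSG00000289229. Precipitation 1 peaks of the window had a median of 206 tags against 47 in the whole list, so its tags are not on an equal footing with those of genes elsewhere. In precipitation 2 the peak over the ARID2 start itself had 37 tags, fewer than both, and that of interval 4, just upstream, had 79.

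By the numbers of precipitation 1 peaks, precipitation 2 peaks and shared intervals within 10 kb of the gene, compared as log2(1 + number) by Euclidean distance over the 2 libraries, SLC38A1 (4, 8 and 0) was matched exactly by MFSD1, KIAA2026 and HMGA2. SLC38A2 (1, 4 and 1) was matched exactly by GMFB, ZPR1 and ARPC3. ARID2 (8, 26 and 7) had no exact match, and the nearest genes were USP8 (6, 21 and 5) at a distance of 0.625, MBP (7, 41 and 7) at 0.660 and HIVEP3 (10, 40 and 7) at 0.669. Ties were ordered by gene length.

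The false discovery rate that MACS gave was 100% for all 15017 precipitation 1 peaks, the 33 of the window included, and between 0.74% and 2.33% for the 74 of precipitation 2. The tags in all peaks summed to 988363 in precipitation 1 and 4172422 in precipitation 2. The total depth of each library is unknown from these lists, and tag counts are not compared between precipitations for that reason.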

How the data were processed

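DEK and H3K4me3 were measured by ChIP-seq in 2 precipitations each, with 2 Input samples. According to the study's methods and the submitters' processing notes, the authors aligned reads to hg19 with Bowtie2 and called peaks per precipitation with MACS 1.4.1 at default parameters, without pooling. The deposited DEK lists give a tag count per peak that the authors did not normalize, a deposited score (10 times the negative log10 p-value), the authors' fold enrichment (a ratio over the local background) and a deposited false discovery rate in percent. The deposited H3K4me3 lists give positions only; Input coverage was not analysed here.

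The window, members and gene lists were chosen with earlier results of these data known. Peaks were intersected by at least 1 bp, and genes and start sites were taken from GENCODE 44 on GRCh37, whose chromosomes no peak exceeded. Rates per Mb used bases other than N. Genes were named by rule: all coding genes of the window, noncoding genes at shared intervals, list genes with a shared interval at a start site (1 is not reported here), and the 3 most alike genes of each member. SLC38A4, SLC38A4-AS1 and other features at named peaks were chosen after their values were seen. No test was made, since the window was chosen by its counts. In addition, the H3K4me3 lists hold no tags or scores, and Input peaks were not analysed. Shares carry 95% Wilson intervals. For counts of 0 the share stated as allowed is instead 3 divided by the number examined. The interval functions were tested on simulated data. Python 3.11.15, NumPy 2.4.6, pandas 2.3.3 and SciPy 1.17.1 were used.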

Additional observations from a re-analysis of the deposited data

How the results depend on the processing

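When both peaks had to be covered by 50% or more, 7 of the 14 shared intervals were left and the share of precipitation 1 peaks with a partner was 21.2% in place of 36.4%; a score of at least 100 in both lists left 3, and leaving out intervals that hold repeated 16-base stretches (a choice made after seeing the data) left 5. The density ratio of the window to the rest of chromosome 12 was 6.10 in precipitation 1 and 1.57 in precipitation 2 by peaks, and 19.3 and 5.01 by tags per Mb; for precipitation 2 it was 3.05 at a score of at least 100. Leaving 38 to 46 Mb out of the rest, likewise chosen after seeing the data, gave 8.30 and 1.59. Counts from 1 list alone, leaving out either replicate, ranged from 7 to 12 near a start site in the window (5 shared), from 4 to 26 for the glutamine list (3 shared) and from 4 to 21 for the SWI/SNF list (3 shared); with 2 kb in place of 1 kb the glutamine list had 5. The H3K4me3 shares of the window ranged from 21.2% to 33.3% in precipitation 1 and from 16.2% to 22.97% in precipitation 2 without either H3K4me3 replicate. Under the alternatives, 29 values moved by less than 1.5 times or stayed within their counting interval, and 11 did not. No paired analysis was possible because no result comes from a test between groups. Depth is unknown, so an absent peak cannot be read as absent binding.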
